A study of Mus musculus with 2 samples.

Results

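The interferon gamma (IFN-γ) axis was followed here through 7 of the 32285 measured genes in single-cell RNA libraries of the mouse mammary gland. The genes are the ligand Ifng, its receptor subunits Ifngr1 and Ifngr2, the transcription factor Irf1, the chemokines Cxcl9 and Cxcl10 and their receptor Cxcr3. They were selected on their UMIs by cell class in both libraries, as a pathway whose values were already known, so the differences between libraries are descriptions and none was tested. There was 1 library from control mice (Ctrl) and 1 from mice given clodronate liposomes (CL) by intraperitoneal injection, an agent that kills phagocytic cells which swallow it. The mice were wild-type adult females of 9 to 10 weeks by the sample labels, and the protocol text gives a slightly wider range. CD31+ and TER119+ cells were depleted by sorting and CD45+ immune cells were included, so endothelial cells here are those that escaped the gate. How many mice were pooled, in what proportion the sorted fractions were mixed and what the controls received were not given in the sources used here. With 1 library per group there is no replicate check: the brackets below are exact 95% intervals that cover counting error only, and cells of 1 library are not replicates.

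IFN-γ is the cytokine by which NK cells and T cells instruct neighbouring cells. It binds a receptor made of the ligand-binding chain IFNGR1 and the signalling chain IFNGR2, which activates the kinases JAK1 and JAK2, and the signal switches on Irf1 and a large set of genes for antigen presentation and cell-autonomous defence. Among these targets are CXCL9 and CXCL10, which attract activated T cells and NK cells that carry CXCR3. CXCL10 is also induced by type I interferon and by NF-kB.

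After filtering and removal of predicted doublets, 5929 cells of the Ctrl library and 8771 of the CL library were retained, with a median of 11332 and 10280 unique molecular identifiers (UMIs, each a counted transcript molecule) per cell. Cell classes were rebuilt here by clustering and are named "-like" from marker genes, so a difference from the study's own classes may come from that. Droplets with 100 to 300 UMIs, 54275 and 55973 of them, gave the level of free RNA. Levels are given as the UMIs of a gene in a class over all UMIs of that class, scaled to 1000000 (CPM), and ratios are log2 of the level in the library labelled CL over that labelled Ctrl. The depletion label was checked on the macrophage markers. Macrophage-like cells were 41 of 5929 (0.692% [0.497, 0.937]) and 42 of 8771 (0.479% [0.345, 0.647]), lower in the library labelled CL as the label has it but with overlapping intervals. The summed level of the 8 macrophage markers over all retained cells was 57.2 CPM in the library labelled Ctrl and 78.3 CPM in that labelled CL, which does not run as the label has it. This sum covers all retained cells, so it does not measure macrophage-like cells alone. Monocyte-like cells were 18 of 5929 (0.304%) and 212 of 8771 (2.42%), and their part in the sum was not tested. Summed markers of monocytes (139 and 390 CPM), neutrophils (15.7 and 108 CPM), T cells (50.9 and 137 CPM) and NK cells (69.6 and 112 CPM) were also higher in the library labelled CL. Their part in the differences below was not tested. The libraries share 22 matrix columns (droplet barcodes) among the candidate cells and 11 among the retained cells. Leaving out those 11 moved none of the 63 results that were recomputed, by the rule given with the alternatives below.

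Ifng (chromosome 10, 118441046 to 118445892, plus strand, GRCm38) was made almost entirely by T and NK-like cells. In the library labelled Ctrl, 204 of 213 Ifng UMIs (95.8% [92.1, 98.1]) were in this class, and in that labelled CL it was 600 of 618 (97.1% [95.4, 98.3]). Per class the level was 188 CPM [163, 216] and 157 CPM [144, 170]. Outside the class the gene was at background: no other class held more than 11 UMIs, hormone-responsive luminal-like cells had 2 and 4, and endothelial-like and macrophage-like cells had 0 in both libraries. The 5 UMIs of basal-like cells in the Ctrl library all came from a single cell. Free RNA held 1.09 and 5.59 CPM of Ifng, above the level in secretory-lineage luminal-like cells (0.0325 and 0.253 CPM).

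Among T and NK-like cells, Ifng was detected in 67 of 213 (31.5%) of the Ctrl library and 244 of 734 (33.2%) of the CL library. At a common depth of 2320 UMIs per cell, which leaves out 22 and 59 shallower cells, 20.4% [14.9, 26.8] and 22.8% [19.7, 26.2] had a UMI. Hormone-responsive luminal-like cells, which should lack the gene, had a UMI in 0.0944% and 0.153% of cells at several times the depth, with medians of 20019 and 16906 UMIs against 4872 and 4458 in T and NK-like cells. The share of ligand-positive cells did not differ between the libraries beyond counting error. Per class, the CL level was slightly below the Ctrl level, at a log2 ratio of -0.26 [-0.49, -0.03], and without the cell with most Ifng UMIs in each library (27 and 13 UMIs) the ratio was -0.09 [-0.34, 0.16].

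Per library, the order was the other way round. Over all retained cells Ifng was 2.48 CPM in the library labelled Ctrl and 5.33 CPM in that labelled CL, a ratio of 2.15 [1.84, 2.53]. T and NK-like cells were 3.59% of retained cells in the former and 8.37% in the latter, and a difference in the tissue and one in how the sorted fractions were mixed cannot be told apart here. Over a whole library, fewer cells of a type and less RNA per cell look the same, which is why the members are given by class.

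Within the T and NK-like class the ligand was concentrated in 3 of 9 sub-groups. CD8 T-like cells held 105 Ifng UMIs in 50 cells (401 CPM [328, 485]) in the library labelled Ctrl and 277 in 269 cells (195 CPM [173, 220]) in that labelled CL. NK-like cells held 70 UMIs in 50 cells (350 CPM [273, 443]) and 176 in 173 cells (228 CPM [196, 265]). A sub-group that stayed unnamed and was led by Xcl1 and Fcer1g, genes of innate lymphocytes, held 16 UMIs in 23 cells (157 CPM [89.7, 255]) and 82 in 55 cells (285 CPM [227, 354]). The level was therefore lower in the library labelled CL in CD8 T-like cells (log2 ratio -1.04 [-1.37, -0.70]; -0.69 [-1.06, -0.30] without the top cell) and in NK-like cells (-0.62 [-1.03, -0.20]), and higher in the unnamed sub-group (0.86 [0.08, 1.74]). CD8 T-like cells pool several clusters. A deep cluster among them (median 10806 UMIs), with the division genes Mki67 and Birc5 among its leading genes, had 4 and 36 cells. Its part in the CD8 T-like ratio was not tested. CD4 T-like cells had 4 and 27 UMIs (84.4 and 91.8 CPM), an unnamed sub-group led by Gzmc and Cd7 had 9 and 18 (24.8 and 44.8 CPM), and gamma delta T-like cells (4 and 13 cells) and a sub-group led by Il5 and Il1rl1 (6 and 12 cells) had none. The make-up of the class differed: CD8 T-like cells were 23.5% of it in the library labelled Ctrl and 36.6% in that labelled CL, NK-like cells 23.5% and 23.6%, and the Gzmc and Cd7 sub-group 27.7% and 9.54%.

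**Figure D1:**
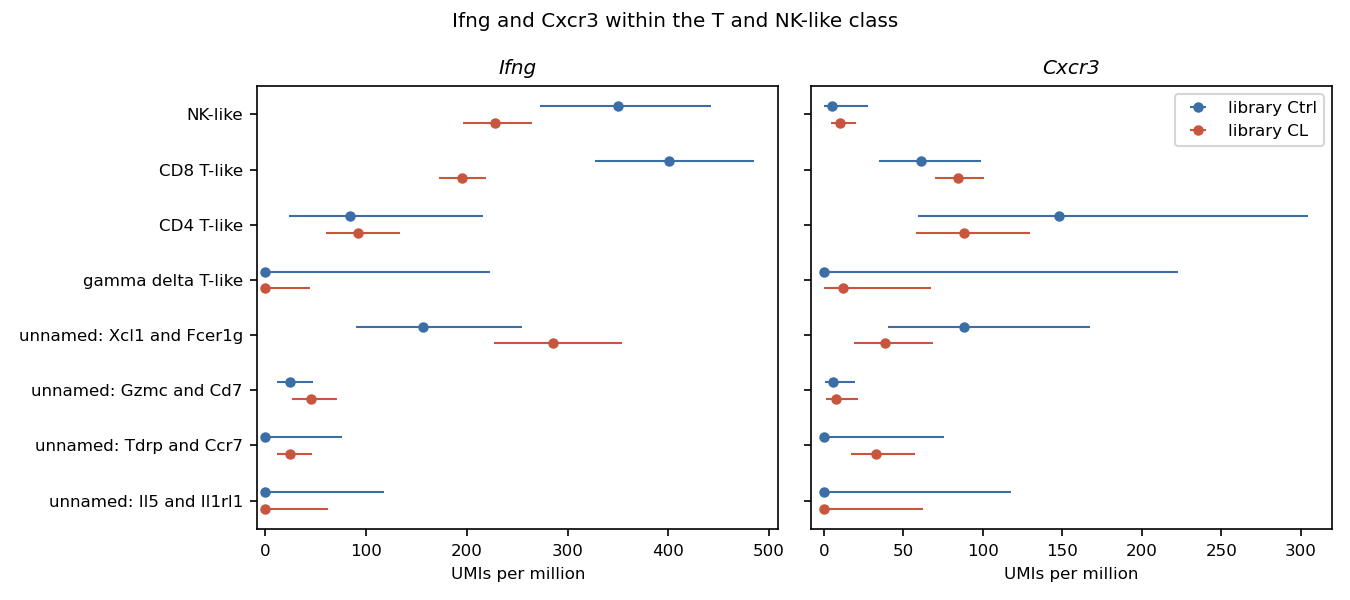
Ifng (left) and Cxcr3 (right) in 8 of the 9 sub-groups of T and NK-like cells, in CPM of the sub-group (x axes). Points are the values of the library labelled Ctrl (blue) and CL (red) and bars are exact 95% Poisson intervals; in NK-like and CD8 T-like cells the CL points for Ifng lie lower, in the unnamed sub-group led by Xcl1 and Fcer1g higher, and for Cxcr3 NK-like cells lie below CD4 and CD8 T-like cells. The ninth sub-group, of 1 and 10 cells with epithelial leading genes, is not drawn.

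The genes of the ligand producers' program were present in the same class. Tbx21, which encodes the transcription factor T-bet, was at 167 and 112 CPM in T and NK-like cells (log2 ratio -0.57 [-0.83, -0.32]). By sub-group it was at 84.0 and 89.5 CPM in CD8 T-like cells, 243 and 239 CPM in the Gzmc and Cd7 sub-group, 200.2 and 150.5 CPM in NK-like cells, 275 and 219 CPM in the Xcl1 and Fcer1g sub-group and 42.2 and 13.6 CPM (2 and 4 UMIs) in CD4 T-like cells. Eomes, its relative, was at 104 and 112 CPM. Il2rb, the shared beta chain of the IL-2 and IL-15 receptors, was at 1250 and 867 CPM (-0.53 [-0.62, -0.44]), and Il18rap, a chain of the IL-18 receptor, at 95.01 and 136 CPM (0.52 [0.21, 0.84]). Of the 8 genes of this list, all 8 had the 20 UMIs needed to be compared in this class, and 0 differed by 2-fold in either direction (median log2 ratio -0.05). Of all genes in the class, 3.68% were 2-fold higher and 2.5% lower, so a count of 0 among 8 is near these shares. Beyond counting error, 1 of the 8 was higher and 3 were lower. Of the 8 cytokines of the list that induce Ifng, none reached 20 UMIs in T and NK-like, basal-like or endothelial-like cells, 4 did in hormone-responsive luminal-like cells, 2 in secretory-lineage and macrophage-like cells and 1 in fibroblast-like cells. Il18, which acts through the receptor above, was at 5.45 and 5.72 CPM and Il15 at 4.10 and 4.47 CPM in hormone-responsive luminal-like cells, close to free RNA (4.90 and 5.86 CPM, 3.27 and 3.51 CPM). Il21 had 0 UMIs in basal-like, secretory-lineage and fibroblast-like cells, and the level of Il12b, a chain of IL-12, was 0 in the 41 macrophage-like cells of the library labelled Ctrl and 46.0 CPM (23 UMIs) in the 42 of that labelled CL.

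In T and NK-like cells, those with an Ifng UMI were compared with those without. They had none of 12 (Ctrl) and 16 (CL) IFN-γ targets at least 2-fold higher beyond counting error, where 2.08% and 1.03% of all genes were, and 0 of 2 (Ctrl) and 4 of 6 (CL) type I interferon targets. Among CL cells Ifit1 was at 14.4 CPM in those with Ifng, from 19 UMIs in 5 cells, against 4.39 CPM in those without. By their profile over 19 pairs of class and library, the genes most like Ifng were Cd96, Cd6, Klrc2, Klrg1 and Klra1, with Pearson's r of 0.995 to 0.993 over class levels that share the same libraries.

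The receptor chains were spread differently from the ligand. Ifngr1 (chromosome 10, 19591949 to 19610229, plus strand) was highest in T and NK-like cells, with 1360 CPM [1291, 1431] in the library labelled Ctrl and 1024 CPM [992, 1056] in that labelled CL (log2 ratio -0.41 [-0.50, -0.32]). Of the other classes but the few B-like cells (4 and 6 UMIs), monocyte-like cells came next, with 295 CPM [202, 417] in 18 cells and 203 CPM [182, 225] in 212. Endothelial-like (119 and 117 CPM), fibroblast-like (105 and 99.6 CPM) and macrophage-like cells (98.9 and 96.0 CPM) followed, and their intervals overlap. Secretory-lineage luminal-like cells had 47.5 and 46.8 CPM (-0.02 [-0.12, 0.08]), hormone-responsive luminal-like cells 36.7 and 31.8 CPM (-0.21 [-0.31, -0.11]) and basal-like cells 36.3 and 22.4 CPM (-0.70 [-1.14, -0.27]). Free RNA held 38.1 and 46.9 CPM, near the level of secretory-lineage cells and above those of hormone-responsive and basal-like cells in the library labelled CL.

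Ifngr2 (chromosome 16, 91547072 to 91565623, plus strand), the signalling chain, was ordered differently. It was lowest in T and NK-like cells, with 13 UMIs (11.99 CPM [6.39, 20.5]) and 42 UMIs (10.975 CPM [7.91, 14.8]), which is below its level in free RNA (44.7 and 38.6 CPM). The highest levels were in monocyte-like cells (120 and 87.9 CPM) and macrophage-like cells (98.9 CPM [68.1, 139] and 128 CPM [98.5, 163]). Fibroblast-like cells had 66.4 and 42.4 CPM (log2 ratio -0.65 [-1.09, -0.21]), hormone-responsive luminal-like cells 48.4 and 48.1 CPM (-0.01 [-0.09, 0.08]), those of the secretory lineage 30.4 and 31.1 CPM (0.03 [-0.09, 0.16]) and basal-like cells 27.8 and 20.4 CPM (-0.45 [-0.93, 0.02]). In endothelial-like cells, 5 and 21 UMIs gave a log2 ratio of 1.22 [-0.23, 2.98], within counting error.

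Both chains were seen in the same cell in 27.9% and 25.2% of hormone-responsive luminal-like cells, 24.4% and 40.5% of macrophage-like cells, 22.4% and 13.1% of fibroblast-like cells, 12.3% and 11.9% of secretory-lineage cells, 1.89% and 16.7% of endothelial-like cells, 5.43% and 1.35% of basal-like cells and 3.76% and 3.27% of T and NK-like cells. These shares depend on the depth of a cell, which was greatest in the hormone-responsive class of these 7. In the 2 luminal classes the log2 ratios of both chains lay between -0.21 and 0.03.

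**Figure D2:**
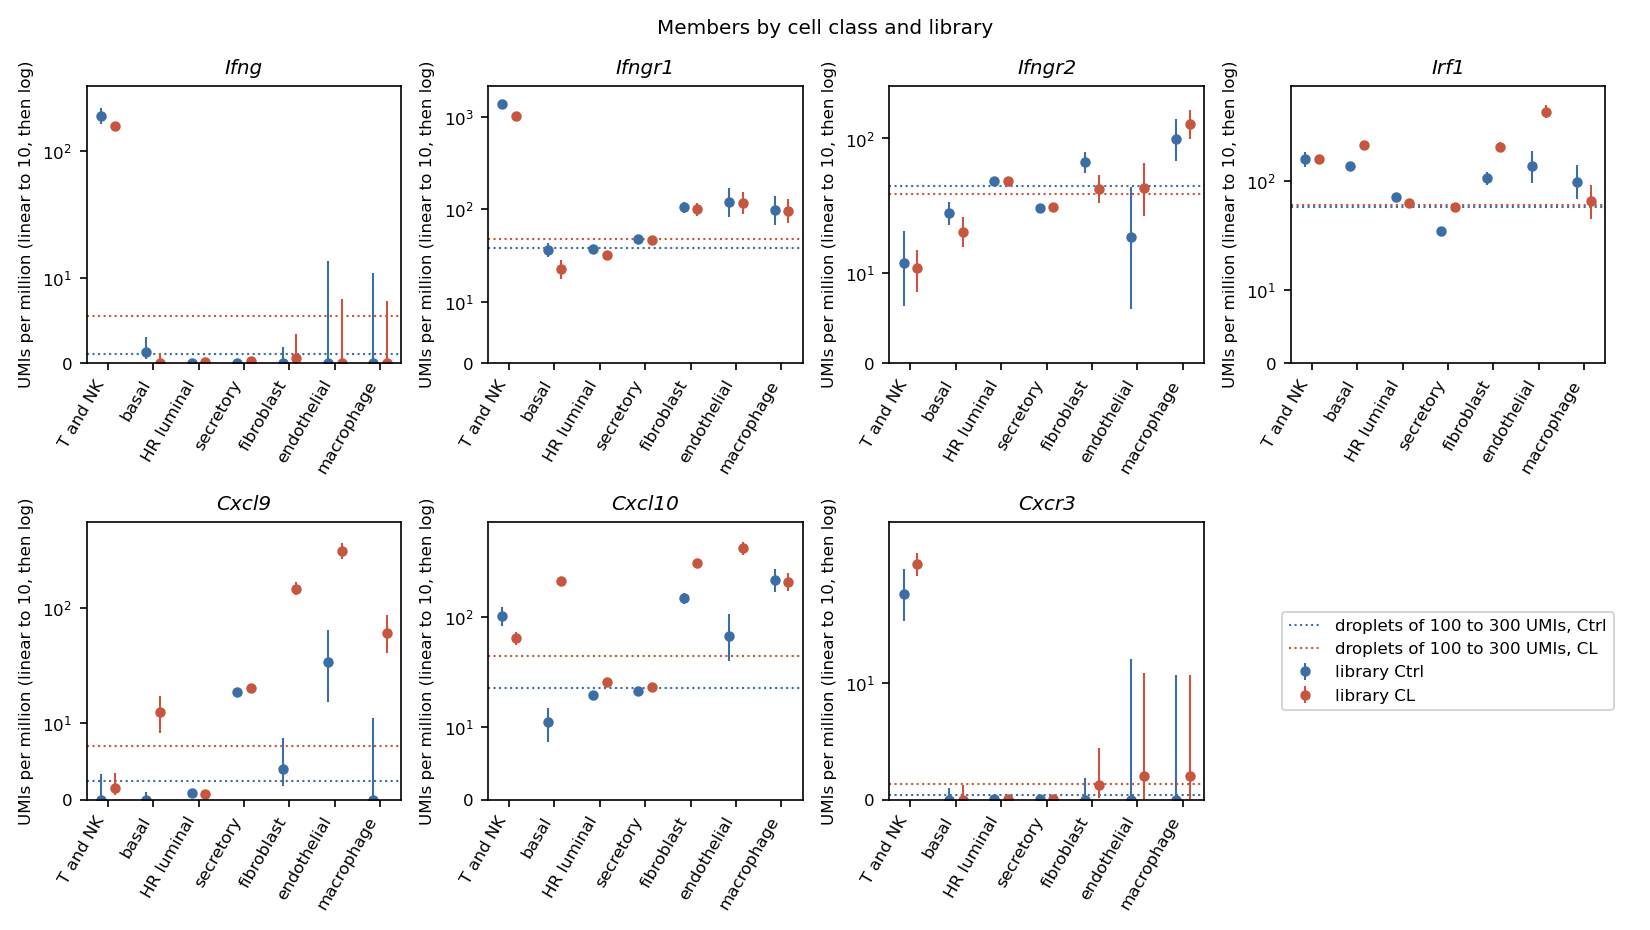
The 7 genes in 7 cell classes, in CPM of the class (y axes, linear to 10 and then logarithmic). Points are the library labelled Ctrl (blue) and CL (red), bars are exact 95% Poisson intervals and dotted lines are droplets of 100 to 300 UMIs; Ifng and Cxcr3 stand above the dotted lines in T and NK-like cells, whereas in the library labelled CL Cxcl9 and Cxcl10 are highest in endothelial-like and fibroblast-like cells.

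Irf1 (chromosome 11, 53770014 to 53778374, plus strand) encodes interferon regulatory factor 1, an early target of the pathway that carries the signal on. Its level in T and NK-like cells was 159 and 158 CPM, a log2 ratio of -0.01 [-0.26, 0.24]. Outside the lymphocytes it was higher in the library labelled CL in 4 classes: endothelial-like cells (138 and 432 CPM, log2 ratio 1.65 [1.14, 2.20]), fibroblast-like cells (106 and 205 CPM, log2 ratio 0.95 [0.70, 1.21]), secretory-lineage cells (35.1 and 57.5 CPM, log2 ratio 0.71 [0.61, 0.82]) and basal-like cells (138 and 214 CPM, 0.64 [0.47, 0.81]). In hormone-responsive luminal-like cells it was slightly lower there (71.7 and 63.2 CPM, -0.18 [-0.25, -0.11]), and in macrophage-like cells 33 UMIs in each library gave -0.58 [-1.32, 0.16]. In the library labelled CL the named classes ran in order from endothelial-like cells, through basal-like and fibroblast-like cells, which do not differ beyond counting error, and T and NK-like cells, to monocyte-like (85.0 CPM), macrophage-like, hormone-responsive and secretory-lineage cells, the last 3 near the level of free RNA (60.8 CPM); the 18 B-like cells held 12 UMIs. Thinned to 5228 UMIs, the share of secretory-lineage cells with an Irf1 UMI was 14.1% [12.7, 15.5] in the library labelled Ctrl and 20.3% [19.0, 21.7] in that labelled CL (25.5% and 32.9% before thinning). In basal-like cells, thinned to 2061 UMIs, it was 22.0% [18.0, 26.4] and 31.5% [27.0, 36.3].

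The upstream sequences of Irf1, Cxcl10 and Cxcl9 are shown because these genes are held to be direct targets of the pathway. Each is the 250 bases before the annotated start in RefSeq (GRCm38.p6), written 5′ to 3′ on the gene's strand. Capitals mark matches, on either strand, to a gamma-activated sequence (GAS, TTCNNNGAA), an interferon-stimulated response element (ISRE, searched as 2 copies of GAAA with 2 bases of any kind between them) or the NF-kB consensus. The windows are chr11:53769764-53770013 on the plus strand, chr5:92348890-92349139 on the minus strand and chr5:92328080-92328329 on the minus strand.
Irf1: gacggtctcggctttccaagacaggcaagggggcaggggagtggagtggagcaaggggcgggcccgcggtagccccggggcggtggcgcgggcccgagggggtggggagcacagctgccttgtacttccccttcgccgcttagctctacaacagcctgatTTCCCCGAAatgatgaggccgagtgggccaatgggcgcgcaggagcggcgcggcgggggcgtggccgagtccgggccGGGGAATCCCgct
Cxcl10: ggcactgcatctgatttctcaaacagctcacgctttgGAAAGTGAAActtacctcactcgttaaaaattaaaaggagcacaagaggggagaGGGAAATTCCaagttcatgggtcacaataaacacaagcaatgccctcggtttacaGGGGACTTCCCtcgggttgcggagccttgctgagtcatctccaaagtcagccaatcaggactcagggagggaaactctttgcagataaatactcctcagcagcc
Cxcl9: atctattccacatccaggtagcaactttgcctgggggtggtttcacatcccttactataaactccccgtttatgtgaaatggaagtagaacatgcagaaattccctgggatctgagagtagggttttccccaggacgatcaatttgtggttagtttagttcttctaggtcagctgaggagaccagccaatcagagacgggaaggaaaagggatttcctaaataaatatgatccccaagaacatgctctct

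Irf1 has a GAS match, TTCCCCGAA, 90 to 82 bases before the start, and an NF-kB match (13 to 4 bases before it) that fits the degenerate consensus on either strand. Cxcl10 has an ISRE match, GAAAGTGAAA, 213 to 204 bases before its start, and NF-kB matches at 159 to 150 and, overlapping each other, 104 to 94 bases. The Cxcl9 window holds no match to the searched letters. That says nothing about sites with other letters inside the window or about sites elsewhere. Of the other members, Ifng has a GAS match (TTCAGAGAA, 249 to 241 bases before the start), Ifngr2 an NF-kB match, and Ifngr1, Cxcr3 and the second Irf1 entry none. Over all 32851 such windows, 7.02% hold a GAS match, 2.98% an ISRE match and 7.25% an NF-kB match. Among the 17 IFN-γ targets described below, 11 have an entry, of which 4 hold a GAS match (Igtp, Psmb8, Serpina3g and Irf8), 4 an ISRE match (Gbp2, Gbp3, Igtp and Irgm1) and 2 an NF-kB match. These are matches of letters, not measured sites.

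Cxcl9 (chromosome 5, 92321347 to 92328079, minus strand), a chemokine induced mainly by IFN-γ, was carried by very few cells. A UMI was found in 24 retained cells of the library labelled Ctrl and 171 of that labelled CL, and 5 (0.0843% [0.0274, 0.197]) and 62 (0.707% [0.542, 0.905]) had at least 5, a threshold set after seeing the data. Secretory-lineage luminal-like cells held 575 of 645 UMIs in the former and 882 of 1744 in the latter. Their class levels were nearly equal, 18.7 and 20.3 CPM (log2 ratio 0.12 [-0.03, 0.27]), but the 575 UMIs lay in 3 cells (351, 222 and 2 UMIs) and the 882 in 83 cells (the highest with 124). Without the top cell of each library the ratio was 1.26 [1.04, 1.48]. Thinned to 5228 UMIs, 0.0826% [0.0100, 0.298] and 1.62% [1.23, 2.09] of secretory-lineage cells had a UMI. Within this class, a cluster led by Ltf and Csf3 (202 and 722 cells) held 573 of the 575 and 725 of the 882 UMIs, and outside it a cluster of mixed luminal markers that stayed unnamed (126 and 426 cells) held 17 and 285 more, of which single cells had 16 and 174.

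The stromal classes differed more. Fibroblast-like cells had 8 Cxcl9 UMIs in 3 of 250 cells of the library labelled Ctrl (4.05 CPM) and 238 in 12 of 260 cells of that labelled CL (146 CPM), a log2 ratio of 5.17 [4.17, 6.40]. Endothelial-like cells had 9 UMIs in 4 of 53 cells (33.5 CPM) and 152 in 13 of 60 cells (313 CPM), a ratio of 3.22 [2.26, 4.38], all of them in the cluster led by Fabp4, Selp and Sele. Basal-like cells had 0 and 37 UMIs, at least 15.4-fold higher in the library labelled CL against a floor of 3 counts, but 20 of the 37 were in 1 cell. Macrophage-like cells had 0 and 30, at least 6.67-fold higher, with 19 in 1 cell, and monocyte-like cells 0 of 18 and 11 of 212 cells with a UMI. Hormone-responsive luminal-like cells had 35 and 38 UMIs (0.801 and 0.776 CPM), below free RNA (2.45 and 6.94 CPM), and their log2 ratio of -0.05 [-0.75, 0.66] was 2.33 with predicted doublets kept. T and NK-like cells had 0 and 6.

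Cxcl10 (chromosome 5, 92346638 to 92348889, minus strand) was broader. A UMI was present in 408 retained cells of the library labelled Ctrl and 834 of that labelled CL, and at least 5 UMIs in 80 (1.35% [1.07, 1.68]) and 178 (2.03% [1.74, 2.35]). The widest difference was in basal-like cells, with 41 UMIs (10.96 CPM [7.86, 14.9]) against 637 (213 CPM [197, 230]), a log2 ratio of 4.28 [3.82, 4.77], and 4.46 without the top cells. There, 23 of 444 cells of the library labelled CL held 93.1% of the UMIs. Thinned to 2061 UMIs, 1.27% [0.412, 2.93] and 9.25% [6.597, 12.5] of basal-like cells had a UMI (5.19% and 10.8% before thinning). Endothelial-like cells had 18 and 206 UMIs (66.9 and 424 CPM, 2.66 [1.97, 3.45]), again all in the cluster led by Fabp4, Selp and Sele, and fibroblast-like cells 292 and 509 (148 and 313 CPM, 1.08 [0.87, 1.29]).

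In the luminal classes Cxcl10 was low on average, below free RNA (22.7 and 44.1 CPM), yet concentrated. Hormone-responsive luminal-like cells had 849 and 1254 UMIs (19.4 and 25.6 CPM, log2 ratio 0.40 [0.27, 0.53]), of which 74.8% and 72.9% lay in 39 and 46 cells. Secretory-lineage cells had 645 and 1003 UMIs (21.0 and 23.1 CPM, 0.14 [-0.01, 0.28]), of which 83.7% and 76.4% lay in 15 and 40 cells, and the ratio was 0.54 [0.37, 0.71] without the top cell of each library (234 and 160 UMIs). In macrophage-like cells the 72 and 105 UMIs (216 and 210 CPM) included single cells of 58 and 61, and the ratio went from -0.04 [-0.49, 0.41] to 1.07 [0.17, 2.05] without them. T and NK-like cells were the exception, with 101.5 and 63.8 CPM (-0.67 [-1.001, -0.33]). The Gzmc and Cd7 sub-group held 83 of 110 Ctrl UMIs and 57 of 244 CL UMIs (229 and 142 CPM, -0.69 [-1.20, -0.19]). CD8 T-like cells held 2 and 121, 66 of the latter in 1 cell.

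**Figure D3:**
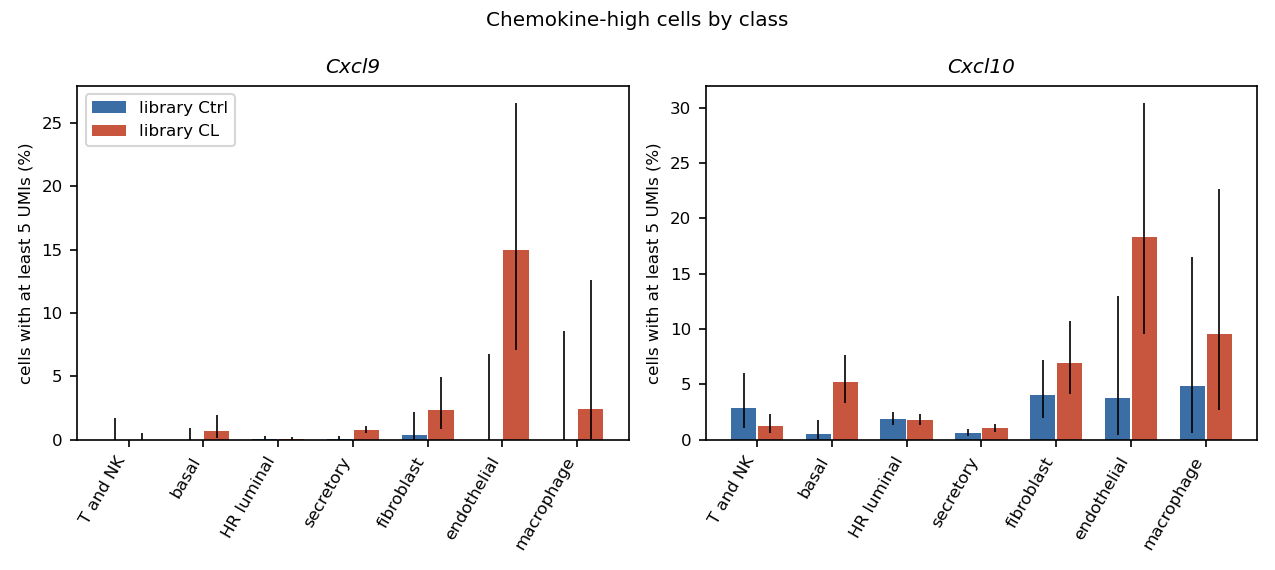
Share of cells with at least 5 UMIs of Cxcl9 (left) and Cxcl10 (right) in 7 classes (y axes, percent of the cells of the class). Bars are the library labelled Ctrl (blue) and CL (red) and lines are exact 95% Clopper-Pearson intervals; the highest shares are in endothelial-like cells of the library labelled CL, 15.0% for Cxcl9 and 18.3% for Cxcl10.

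Most cells high in Cxcl10 lacked Cxcl9. Of the cells with at least 5 Cxcl9 UMIs, 4 of 5 (Ctrl) and 20 of 62 (CL) also had at least 5 of Cxcl10, and 1 and 25 had no Cxcl10 UMI. Conversely, 73 of 80 and 152 of 178 Cxcl10-high cells had no Cxcl9 UMI. In endothelial-like cells of the library labelled CL, 6 cells were high in both, of 9 high in Cxcl9 and 11 in Cxcl10, and in secretory-lineage cells of that library 6, of 30 and 40.

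Cells with at least 5 UMIs of a chemokine were then compared with cells of the same class and library that had none. In the library labelled CL, the 30 Cxcl9-high secretory-lineage cells had 14 of 16 IFN-γ targets at least 2-fold higher, beyond counting error, than the 3827 cells of the class with no Cxcl9 UMI (median log2 ratio 2.18, against 0.09 over all genes compared, of which 2.94% passed the same rule). Gbp2, an interferon-induced GTPase, was at 4128 CPM in the former and 399 in the latter, and Cd74, the invariant chain of MHC class II, at 1496 and 216 CPM. Of the type I interferon list, 5 of 8 passed. The 40 Cxcl10-high cells of that class and library had 11 of 16 targets and 5 of 8 type I genes higher (2.63% of all genes). The 15 Cxcl10-high secretory-lineage cells of the library labelled Ctrl had all 8 measured genes of the type I interferon list higher than the 2565 cells without a Cxcl10 UMI (median 6.30), and 14 of 15 IFN-γ targets (4.06), where 2.64% of all genes passed. Ifit1, a type I interferon target, was at 744 and 4.24 CPM, with its 199 UMIs in 4 of the high cells, and 1 of these 15 cells held 36 of the 38 Ifnb1 UMIs (interferon beta) and 10 of the 12 Ifnl3 UMIs (interferon lambda) of the class. The 15 also include the 2 Cxcl9-high cells of that class and library. Against the 2657 cells without a Cxcl9 UMI, those 2 alone had 14 of 15 IFN-γ targets higher (median 6.16). They had 4 of 8 type I genes higher (2.34% of all genes), so few cells may carry the target count of the 15. In hormone-responsive luminal-like cells, 39 and 46 Cxcl10-high cells had 4 of 5 and 3 of 6 type I genes higher and 2 of 15 and 3 of 15 IFN-γ targets (2.25% and 3.11% of all genes). In basal-like cells of the library labelled CL, 23 Cxcl10-high cells had 13 of 15 IFN-γ targets and 4 of 4 type I genes higher (4% of all genes), with Gbp2 at 2915 CPM against 320 CPM in the 396 cells without Cxcl10. In fibroblast-like cells, the 6 Cxcl9-high cells in the library labelled CL had 2 of 14 IFN-γ targets higher and 1 lower, and 1 of 6 type I genes higher and 1 lower (3.84% of genes higher), and the 18 Cxcl10-high cells had 7 of 14 and 1 of 4 higher (4.13%), against 5 of 10 and 2 of 5 for the 10 such cells of the library labelled Ctrl (3.03%). In endothelial-like cells of the library labelled CL, the 9 Cxcl9-high cells had 9 of 14 targets higher and 1 lower and 2 of 4 type I genes higher (7.35% of genes higher). The 11 Cxcl10-high cells there had 11 of 15 targets higher and 1 lower, and 0 of 4 type I genes (6.4%). In these contrasts the high cells had the higher median depth, for example 11195 against 5557 UMIs in basal-like cells. UMIs of 44 immune markers per cell were 2.09 in high basal-like cells against 0.467, 1.37 against 0.590 in Cxcl9-high secretory-lineage cells and 13.8 against 5.42 in Cxcl9-high fibroblast-like cells, but 0.333 against 0.412 in the 15 Cxcl10-high secretory-lineage cells of the library labelled Ctrl. The part of depth and of these markers in the contrasts was not tested.

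**Figure D4:**
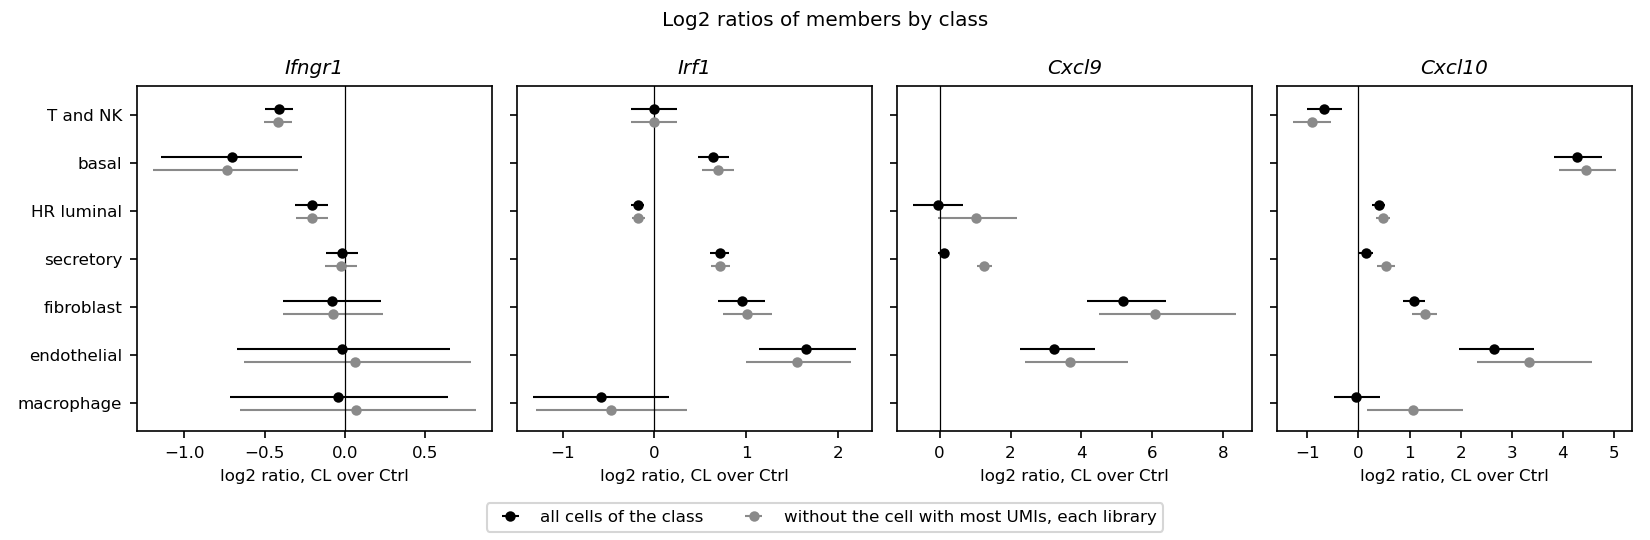
Log2 ratio of the library labelled CL over that labelled Ctrl for Ifngr1, Irf1, Cxcl9 and Cxcl10 in 7 classes (x axes). Points are ratios and bars exact 95% intervals for counting error, over all cells (black) and without the cell with most UMIs in each library (grey); classes in which a library had no UMI are blank. Cxcl10 stands highest in basal-like cells, and the Cxcl9 ratio of secretory-lineage cells moves from 0.12 to 1.26 without the top cells.

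Cxcr3 (chromosome X, 101731535 to 101734269, minus strand), the chemokine receptor, marked the same class as the ligand. T and NK-like cells held 35 of 38 Ctrl UMIs (92.1%) and 182 of 195 CL UMIs (93.3%), or 32.3 CPM [22.5, 44.9] and 47.6 CPM [40.9, 55.0], a log2 ratio of 0.56 [0.03, 1.12]. Every other class had 3 UMIs or fewer. In the thinned cells 9.95% [6.10, 15.1] and 8.00% [6.07, 10.3] had a UMI, so the thinned share did not differ beyond counting error. Before thinning the order was the other way round, with 12.7% and 16.3%. By sub-group, CD4 T-like cells had the highest point value (7 and 26 UMIs, 148 and 88.4 CPM), and CD8 T-like cells (16 and 120 UMIs) had 61.1 CPM [34.9, 99.2] and 84.5 CPM [70.1, 101.1], within counting error of them. NK-like cells had 1 and 8 UMIs (5.01 and 10.4 CPM), below CD4 and CD8 T-like cells, although their Ifng level was close to that of CD8 T-like cells. The Xcl1 and Fcer1g sub-group had 9 and 11 UMIs (88.3 and 38.3 CPM), the former value above and the latter below that of CD8 T-like cells. Genes with the most similar profile were Cd247, Tbc1d10c, Gm8369, Cd8b1 and Rundc3b (r of 0.986 to 0.968, 19 pairs). Cxcr6, another chemokine receptor of lymphocytes, was at 135 and 107 CPM in T and NK-like cells and did not differ by 2-fold.

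A count of members past 2-fold must be read against all genes and against the filter of at least 20 UMIs over both libraries, which a member can pass through the library where it is high. In T and NK-like cells 6 of the 7 members passed the filter and 0 were 2-fold higher or lower in the library labelled CL, where 3.68% and 2.5% of 9282 genes were. In basal-like cells 5 passed and 2 were higher (Cxcl9, Cxcl10; 1.73% of 10514 genes), and in fibroblast-like cells 5 passed and 2 were higher (the same pair; 2.23% of 9343). In endothelial-like cells 5 passed and 4 were higher (Ifngr2, Irf1, Cxcl9 and Cxcl10; 6.63% of 4933), and in macrophage-like cells 5 passed and 1 was higher (Cxcl9; 5.85% of 4186). In secretory-lineage cells 5 passed and 0 were higher (1.54% of 13899), likewise in hormone-responsive luminal-like cells (1.46% of 14614). No member was 2-fold lower in these 6 classes, where 2.79% (basal), 3.48% (fibroblast), 5.66% (endothelial), 4.16% (macrophage), 2.37% (secretory) and 2.29% (hormone-responsive) of genes were.

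The wider target list was compared class by class. Of 17 IFN-γ targets, 15 were compared in basal-like cells and 14 were at least 2-fold higher in the library labelled CL (median log2 ratio 2.66, against -0.08 over all genes). In secretory-lineage cells it was 14 of 16 (2.62, against -0.05), in fibroblast-like cells 11 of 16 (1.36, against -0.04), in endothelial-like cells 6 of 16 (0.89), in macrophage-like cells 4 of 10 (-0.08), in T and NK-like cells 4 of 16 (0.03) and in hormone-responsive luminal-like cells 2 of 15 (0.54). In endothelial-like, T and NK-like and hormone-responsive cells 1 target each was at least 2-fold lower, and in the other classes 0. Of all genes, 1.73% (basal), 1.54% (secretory), 2.23% (fibroblast), 6.63% (endothelial), 5.85% (macrophage), 3.68% (T and NK) and 1.46% (hormone-responsive) were 2-fold higher. Gbp2 was at 21.1 and 467 CPM in secretory-lineage cells (4.47 [4.36, 4.58]), 35.8 and 654 CPM in basal-like cells (4.19 [3.94, 4.45]) and 145 and 649 CPM in fibroblast-like cells (2.16 [1.97, 2.36]). Of the MHC class II genes, H2-Aa was at 4.09 and 83.6 CPM in secretory-lineage cells (4.35 [4.10, 4.62]) and 8.28 and 116 CPM in basal-like cells (3.802 [3.27, 4.38]), and Cd74 at 12.6 and 247 CPM in secretory-lineage cells (4.30 [4.15, 4.45]). In hormone-responsive luminal-like cells their log2 ratios were 0.90 [0.63, 1.18] and 0.84 [0.65, 1.03], under 2-fold. Free RNA held 62.5 and 147 CPM of H2-Aa and 111 and 242 CPM of Cd74, so these levels lay below free RNA in the library labelled Ctrl, and in that labelled CL for H2-Aa, whereas Cd74 in secretory-lineage cells was close to it. Free RNA was estimated to make up only 3.46% and 3.41% of the UMIs of secretory-lineage cells. In basal-like cells it was 3.67% and 3.54%. Its part in these ratios was not tested.

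Of the 5 inhibitors of the pathway on the list (Socs1, Socs3, Ptpn2, Ptpn6 and Pias1), all 5 had enough UMIs in secretory-lineage cells and 4 in basal-like cells, and 0 differed by 2-fold there. Of all genes, 1.54% were 2-fold higher and 2.37% lower in secretory-lineage cells, and 1.73% and 2.79% in basal-like cells. A count of 0 among so few genes is near these shares. Socs1 was at 24.3 and 29.0 CPM in secretory-lineage cells (log2 ratio 0.25 [0.12, 0.39]) and 38.5 and 45.1 CPM in basal-like cells (0.23 [-0.12, 0.58]). The kinases Jak1 and Jak2 also differed by less than 2-fold in both classes. Ido1, a tryptophan-degrading enzyme, was lower in the library labelled CL in hormone-responsive luminal-like cells, at 633 and 276 CPM (-1.20 [-1.23, -1.17]), and at 18.6 and 378 CPM in endothelial-like cells (4.35 [3.10, 5.99]). In secretory-lineage cells it was at 15.4 and 7.70 CPM, but free RNA held 382 and 193 CPM of it and was estimated at 3.46% and 3.41% of this class, so no difference is read from these values. In the hormone-responsive class different clusters held the cells of each library: a cluster led by Gpx3 and Aoc1 had 793 and 33 cells and a cluster led by Fgb and Upk3a 234 and 1158. Of the type I interferon targets, 4 of 6 were 2-fold higher in basal-like cells (1.73% of all genes), 2 of 8 in secretory-lineage cells (1.54%), 2 of 7 in fibroblast-like cells (2.23%), 2 of 5 in endothelial-like cells (6.63%), 1 of 5 in macrophage-like cells (5.85%), 2 of 7 in T and NK-like cells (3.68%) and 0 of 7 in hormone-responsive luminal-like cells (1.46%). Several of these genes, such as Ifit3 and the Gbp and H2 families, have near-identical relatives that can share reads.

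**Figure D5:**
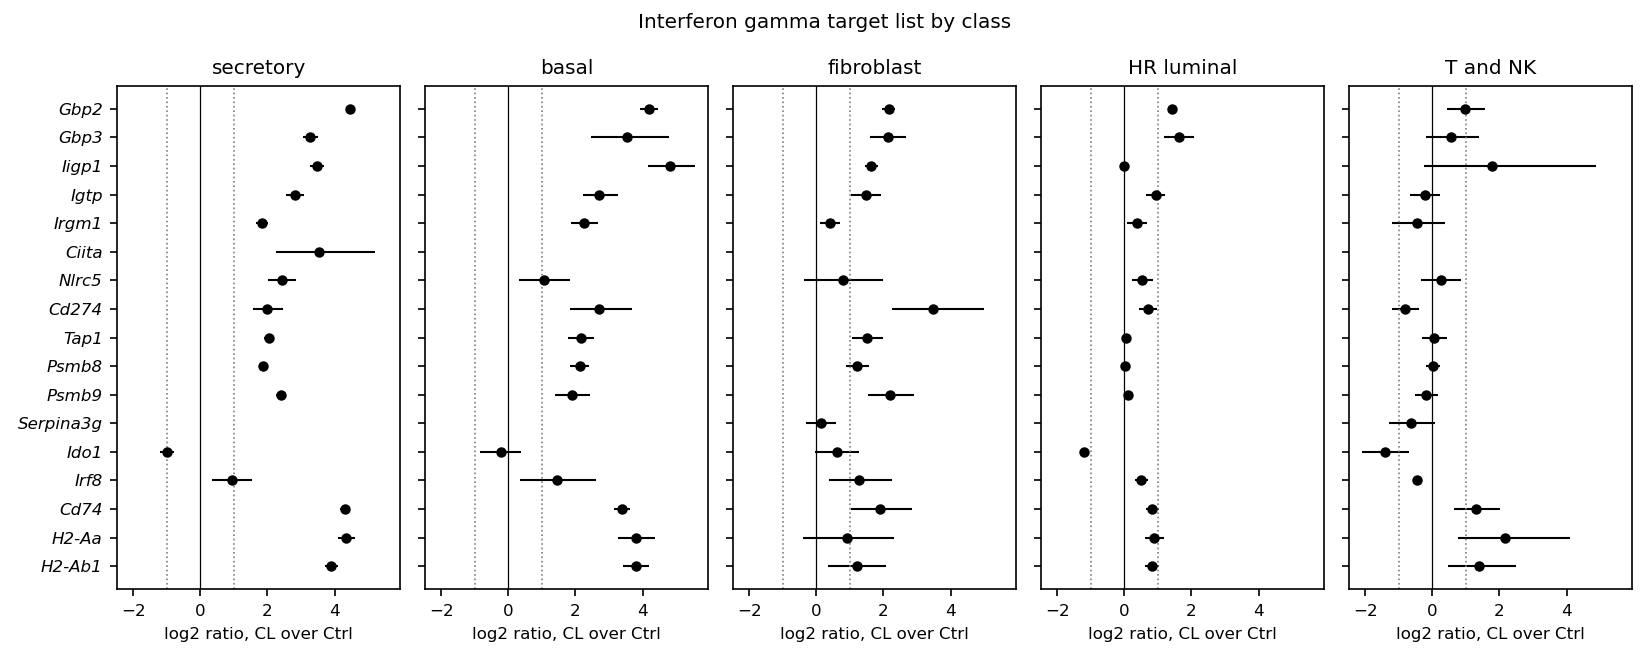
Log2 ratio of the library labelled CL over that labelled Ctrl for the 17 IFN-γ targets (rows) in 5 classes (panels, x axes). Points are ratios, bars are exact 95% intervals for counting error, dotted lines mark 2-fold, and genes under 20 UMIs are blank; most points lie right of the upper line in secretory-lineage and basal-like cells, near 0 in T and NK-like cells, and Ido1 lies left of 0 in secretory-lineage, hormone-responsive and T and NK-like cells.

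Over classes, the profile of Cxcl9 was most like those of Mlkl, Rtp4, Cfb, Gbp2 and Cdk9 (r of 0.826 to 0.724) and that of Cxcl10 most like Rnf213, Trerf1, Patl1, Vcam1 and Clec2d (0.762 to 0.715), each over 19 pairs of class and library. For Irf1 it was Itga1, Dgkh, Gm12840, Sema6d and Ccnd2 (0.850 to 0.802). The profiles of the targets were less tightly matched than those of Ifng and Cxcr3, which sit in a single class.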

How the data were processed

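For each library the authors deposited raw counts (UMIs per gene and barcode, 32285 genes by 6794880 barcodes, unfiltered) with a list of barcodes. The submitters' processing notes name mm10 and Cell Ranger 2.1.1, whereas the matrix headers name Cell Ranger 4; labels name 10x 3' v2 chemistry. Library totals were 118743318 (Ctrl) and 155765480 (CL) UMIs.

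The deposited lists of 7217 and 10555 barcodes do not index the matrix columns, so as many columns with most UMIs were taken as candidates; 18 barcodes were on both lists. A minimum of 500 genes and a maximum of 15% mitochondrial UMIs left 6297 and 9335 cells. Doublets were removed with scrublet in scanpy 1.11.5 (368 and 564), with the Ctrl threshold of 0.202 in both because the automatic CL threshold marked 0. Clustering (Leiden, resolution 1, 2000 variable genes without 70 genes of the lists studied, 30 components, 15 neighbours) gave 24 clusters, 20 of them named from markers, 2 dividing and 2 unnamed. Cells of dividing clusters were named singly from their markers. Python 3.11, numpy 2.4.6, scipy 1.17.1, pandas 2.3.3 and igraph 0.11.9 were used.

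Levels are summed UMIs over all UMIs of a class, scaled to 1000000 (CPM); ratios carry exact conditional binomial intervals, levels exact Poisson and shares Clopper-Pearson intervals (95%). No p-value was computed. For shares, cells were thinned to the 10th percentile of depth in whichever library was shallower for that class. Genes needed 20 UMIs over both libraries. Free RNA was estimated at 0 to 4.88% of a class. The comparison across all genes was tested on simulated counts.

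Named genes were the 7 members, genes of 8 lists and, for each member but the receptor chains, the 5 genes most alike over class and library pairs of at least 30 cells; of the lists, Cxcl11 and Mx1 were not analysed here, and a few genes that the lists hold are not reported here. Members and lists were chosen with earlier results of these data known. The scoring that names clusters and lymphoid sub-groups, the minimum of 5 UMIs for chemokine-high cells, the shared doublet threshold and 4 of the 20 alternatives were chosen after seeing the data. Gene positions are from GENCODE on GRCm38, the build of mm10, and upstream sequences from RefSeq GRCm38.p6.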

Additional observations from a re-analysis of the deposited data

How the results depend on the processing

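Over 20 alternatives, 63 results were recomputed. None of the called values changed sign. Of the values that answer a comparison, 20 moved and 215 did not. Of the others, 64 moved and 666 did not. A ratio or share was said to move when it left its interval for counting error. A count of genes has no such interval and was said to move when it changed by more than a set factor. The Cxcl9 log2 ratio in secretory-lineage cells was 0.36 with at least 1000 genes per cell, 0.37 with interferon genes allowed in the clustering, 0.65 when CPM was averaged over cells and 1.26 without the top cells, and that of Cxcl10 was 0.33 with each cell named alone, 0.68 as the mean CPM and 0.54 without the top cells. In basal-like cells Cxcl10 was at 4.78 with mitochondrial UMIs of at most 5% and 3.68 as the mean CPM, and Irf1 at 0.35 with doublets kept, 0.84 as the mean CPM and 0.33 with a doublet threshold per library. That threshold, which removes no CL cell, gave -0.63 for Ifng and -0.29 for Irf1 in T and NK-like cells and 6136 genes past 2-fold over the classes instead of 3699; a minimum of 100 UMIs gave 817. With each cell named alone, 81.7% (Ctrl) and 86.1% (CL) of Ifng UMIs were in T and NK-like cells. The CL share of these cells with Ifng was 27.9% when thinned to the 25th percentile and 17.0% for at least 2 UMIs unthinned. The Cxcl10 ratio of macrophage-like cells ran from -1.09 (Leiden 0.5) to 2.28 (no mitochondrial limit), and that of Cxcl9 in hormone-responsive cells reached 2.33 with doublets kept. The cause was not tested for any of these. Leiden 2.0, other size factors, CPM without the 50 top genes, free RNA subtracted and leaving out shared columns or the 2 clusters mostly of 1 library moved none. No paired analysis was possible because each group has 1 library.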

Other observations

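Within T and NK-like cells, Ifngr1 was at 1727 and 1321 CPM in NK-like cells, 1564 and 1455 CPM in the sub-group led by Gzmc and Cd7 and 1107 and 957 CPM in CD8 T-like cells (library labelled Ctrl, then CL). Macrophage-like cells held 45 UMIs of Ifnb1 in the library labelled Ctrl and 0 in that labelled CL. The unnamed cluster with markers of both luminal lineages held 50 Cxcl10 UMIs in 126 cells (13.7 CPM) of the former and 613 in 426 cells (51.8 CPM) of the latter.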
